A study of Mus musculus with 12 samples.

Results

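The clustered protocadherins are the genes of a single locus on mouse chromosome 18, and their members were taken as every gene whose symbol begins with Pcdha, Pcdhb or Pcdhg on that chromosome. The rule found 25 of the 37991 genes in the deposited tables, with 2 entries for Pcdha, 22 for Pcdhb and 1 for Pcdhg, and all 25 carried known exonic differences between the strains. Whole retinas of 8-week-old male mice were profiled by paired-end mRNA-seq in 12 libraries, each a pool of 6 to 8 retinas. F0 C57BL/6J and F0 Cast/EiJ, both inbred strains, and the reciprocal hybrids F1 B6xCast (Cast/EiJ mother, C57BL/6J father) and F1 CastxB6 (C57BL/6J mother, Cast/EiJ father) were each represented by 3 libraries. No group carried a transgene, a deletion or a treatment. Each F0 library gave 1 value per gene and each F1 library gave a value for each allele. As background, Cast/EiJ is a wild-derived strain of another mouse subspecies than the standard laboratory strain C57BL/6J.

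Clustered protocadherins are cadherin-related adhesion proteins of the neuronal surface. Each neuron expresses its own combination of isoforms, and contact between cells carrying the same combination lets neurites of a single cell recognise and avoid one another. In the retina this system is best known for the spacing of starburst amacrine cell dendrites and for the survival of inner retinal neurons. A Pcdha or Pcdhg mRNA joins 1 of many variable first exons to constant exons shared by its cluster, whereas a Pcdhb mRNA comes from a single large exon and has no constant part. Promoter choice depends on CTCF, cohesin and DNA methylation.

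The gene entries did not resolve the isoforms of Pcdha and Pcdhg. The entry named Pcdha9 (ENSMUSG00000007440, chr18:37089939-37347311, NCBI37, plus strand) spanned 257.4 kb and held 10 transcripts with 15 exons, so its value pooled Pcdha isoforms. The entry named Pcdhgb6 (ENSMUSG00000023036, chr18:37833989-38001527) spanned 167.5 kb with 10 transcripts and 16 exons and likewise pooled Pcdhg isoforms. Whether the transcripts of these entries hold every isoform of their clusters was not examined. Exons present in more than 1 transcript, which include the constant exons, made up 17.6% of the exonic bases of Pcdha9 and 15.9% of those of Pcdhgb6. Pcdha3 (ENSMUSG00000091969, chr18:37105801-37108685) was a separate entry inside the span of Pcdha9. Isoforms with C-type variable exons had no entry of their own. The 22 Pcdhb genes, from Pcdhb1 (chr18:37424652-37427108) to Pcdhb22 (chr18:37678007-37681073), were separate entries, 18 of them with 1 transcript, and Pcdhb20 was annotated as a pseudogene. The symbols Pcdha9 and Pcdhgb6 are used below as names of these entries, not of single isoforms.

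Unique hits, the read pairs placed on 1 gene and no other (in F1, on 1 allele of it), totalled 8158534 to 12363291 per library. The members took 712.3 to 773.3 CPM (unique hits scaled to the library total) in F0 C57BL/6J, 593.1 to 628.2 in F0 Cast/EiJ and 719.1 to 764.9 in the F1 libraries. Replicate 1 of F0 C57BL/6J, F0 Cast/EiJ and F1 B6xCast differed most from the other libraries of its group, and counts without these libraries are given among the alternatives. Rod markers were the most abundant of the marker lists, with a summed 15144 to 15300 FPKM (fragments per kb of transcript, scaled to library size) in F0 C57BL/6J. In bulk retina, fewer cells of a type and less RNA per cell cannot be told apart.

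By these entries, Pcdhg was the most abundant cluster and Pcdhb the most variable between the strains. In F0 C57BL/6J the summed level was 18.1 ± 0.356 FPKM for Pcdha, 47.8 ± 3.24 for Pcdhb and 51.0 ± 1.62 for Pcdhg (SD, n = 3). In F0 Cast/EiJ it was 19.1 ± 0.962 FPKM for Pcdha, 27.6 ± 0.837 for Pcdhb and 48.4 ± 2.73 for Pcdhg (SD, n = 3). The summed Pcdhb level was thus 1.73-fold higher in F0 C57BL/6J, and its libraries (45.5 to 51.5 FPKM) did not overlap those of F0 Cast/EiJ (26.7 to 28.4 FPKM). In the F1 libraries the C57BL/6J alleles summed to 40.5 ± 1.49 FPKM and the Cast/EiJ alleles to 42.5 ± 1.15 FPKM for Pcdhb (SD, n = 6), so both lay between the F0 strains. No test was run on these sums.

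**Figure D1:**
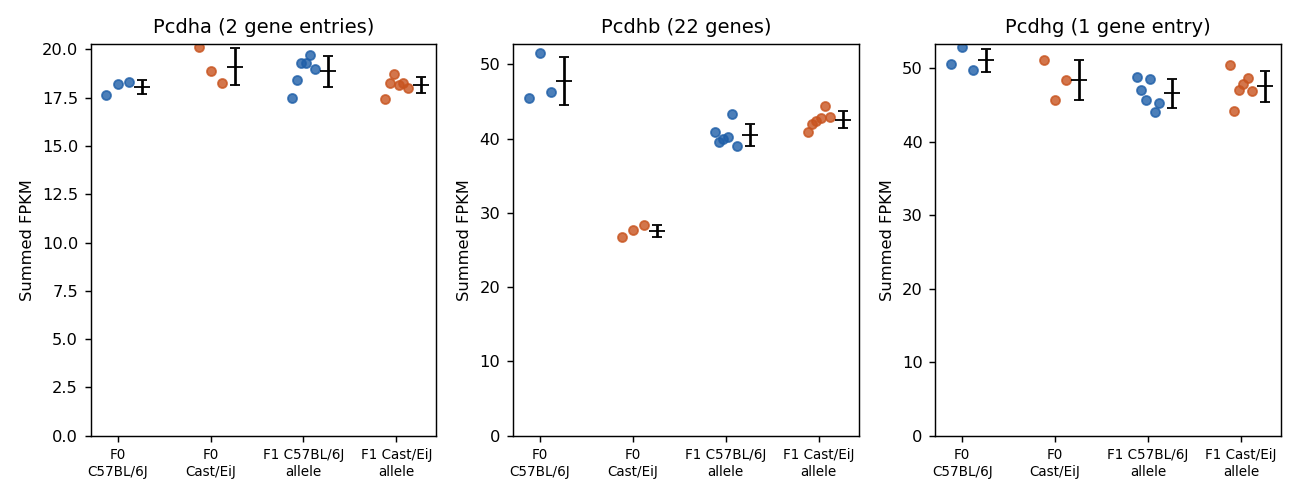
Summed FPKM of each cluster in every F0 library and in each allele of every F1 library. Points are libraries, black bars are means with SD. The Pcdhb sums of F0 Cast/EiJ (26.7 to 28.4 FPKM) lie below every other group, while those of Pcdha overlap between groups. Those of Pcdhg overlap except that F0 C57BL/6J (49.7 to 52.8 FPKM) lies above the F1 C57BL/6J alleles (44.0 to 48.9 FPKM).

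Single Pcdhb genes were expressed far below the Pcdhgb6 and Pcdha9 entries. Averaged over the 6 F0 libraries, Pcdhb17 (4.35 FPKM), Pcdhb22 (3.15 FPKM) and Pcdhb6 (2.88 FPKM) were the highest, against 49.7 FPKM for Pcdhgb6, 17.7 FPKM for Pcdha9 and 0.92 FPKM for Pcdha3. Pcdhb1, the first gene of its cluster, was near the detection limit. Its F0 unique hits were 2, 6 and 2 in C57BL/6J and 0, 1 and 0 in Cast/EiJ. Pcdhb1 was the only member that failed the filters, and no comparison was made for it. The tested member nearest the filter was Pcdha3, with a mean of 32.7 unique hits per F0 library.

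The first comparison asked which members differed between the parental strains. Of the 24 members tested on unique hits, 17 were lower and 1 was higher in F0 Cast/EiJ at an adjusted p under 0.05 (edgeR quasi-likelihood test, Benjamini-Hochberg over 13871 genes). Over all tested genes 20.5% were called lower, 17.5% higher and 38% in either direction. The median log2 difference of the members was -0.75, against 0.01 over all tested genes. On count equivalents, the normalized expression estimates of the authors, 15 of 24 members were lower and 1 was higher (limma, over 14452 genes), where 16.6% of tested genes were called lower and 17.2% higher. The members called lower on both measures were Pcdha3 and 14 Pcdhb genes, and 16.5% of genes tested on both were called lower on both. Unique hits scaled to library size did not overlap between the strains for 17 members with the lower values in Cast/EiJ, a pattern held by 24.2% of tested genes. For Pcdha9, Pcdhb6 and Pcdhb7 they did not overlap with the higher values in Cast/EiJ, as for 26.2% of tested genes.

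Pcdhb9 showed the largest F0 difference of the members. Its unique hits were 175, 197 and 190 in F0 C57BL/6J and 11, 23 and 33 in F0 Cast/EiJ. The groups were far apart, with a log2 difference of -2.77 on unique hits (adjusted p = 9.17e-07) and of -2.84 ± 0.30 (SE) on count equivalents (adjusted p = 0.000135). Pcdhb20, the annotated pseudogene, had 227, 279 and 218 unique hits in F0 C57BL/6J. In F0 Cast/EiJ it had 31, 28 and 40, and the log2 difference was -2.56 (adjusted p = 4.45e-08). In C57BL/6J both genes were among the better expressed Pcdhb genes, with 3.74 FPKM for Pcdhb9 and 4.08 FPKM for Pcdhb20.

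Pcdhb15 and Pcdhb8 followed in size. Pcdhb15 had 100, 122 and 93 unique hits in F0 C57BL/6J against 16, 19 and 24 in F0 Cast/EiJ, a log2 difference of -2.10 (adjusted p = 2.15e-06). Pcdhb8 had 74, 90 and 64 against 15, 19 and 15, a log2 difference of -1.90 (adjusted p = 2.47e-05). Neither gene had overlapping groups. The next 6 by size were Pcdhb11 (-1.42), Pcdhb2 (-1.36), Pcdhb19 (-1.34), Pcdhb3 (-1.27), Pcdhb16 (-1.09) and Pcdhb14 (-1.07), all log2 differences on unique hits called on both measures. Several of the 10 were direct neighbours, namely Pcdhb2 and Pcdhb3, Pcdhb8 and Pcdhb9, Pcdhb14 to Pcdhb16, and Pcdhb19 and Pcdhb20.

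Pcdhb6 was the exception in direction. It had 79, 117 and 90 unique hits in F0 C57BL/6J and 112, 118 and 155 in the less deeply sequenced F0 Cast/EiJ libraries. Scaled to library totals the groups did not overlap, and the log2 difference was 0.73 (adjusted p = 0.00146). Pcdhb4, Pcdhb7, Pcdhb10 and Pcdhb12 passed the test on neither measure, with log2 differences on unique hits of 0.08, 0.32, -0.31 and -0.05. Pcdhb5 and Pcdhb13 were called on unique hits alone (adjusted p = 0.0272 and 0.0363), with adjusted p = 0.0628 and 0.0731 on count equivalents. The F0 calls of Pcdha3, Pcdhb5, Pcdhb13 and Pcdhb22 on unique hits were each lost on leaving out F0 C57BL/6J replicate 2 and some other libraries.

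The entries that pool the isoforms of Pcdha and Pcdhg differed little between the strains. Pcdhgb6 had 4620, 4870 and 4550 count equivalents in F0 C57BL/6J and 4670, 4230 and 4470 in F0 Cast/EiJ. These groups overlapped, and the log2 difference was -0.07 ± 0.07 (SE, adjusted p = 0.44). Pcdha9 had 1440, 1440 and 1470 count equivalents in F0 C57BL/6J and 1660, 1480 and 1500 in F0 Cast/EiJ. Its groups did not overlap, but the log2 difference of 0.09 ± 0.07 (SE) did not pass the test (adjusted p = 0.343). Pcdha3 had 50.5, 56.7 and 47.2 count equivalents against 29.3, 34.6 and 31.8, a log2 difference of -0.67 ± 0.19 (SE, adjusted p = 0.0256). This call was lost without any 1 of 4 F0 libraries (limma adjusted p = 0.0556 to 0.0973). Differences among the isoforms within an entry of 10 transcripts cannot be seen in its total.

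**Figure D2:**
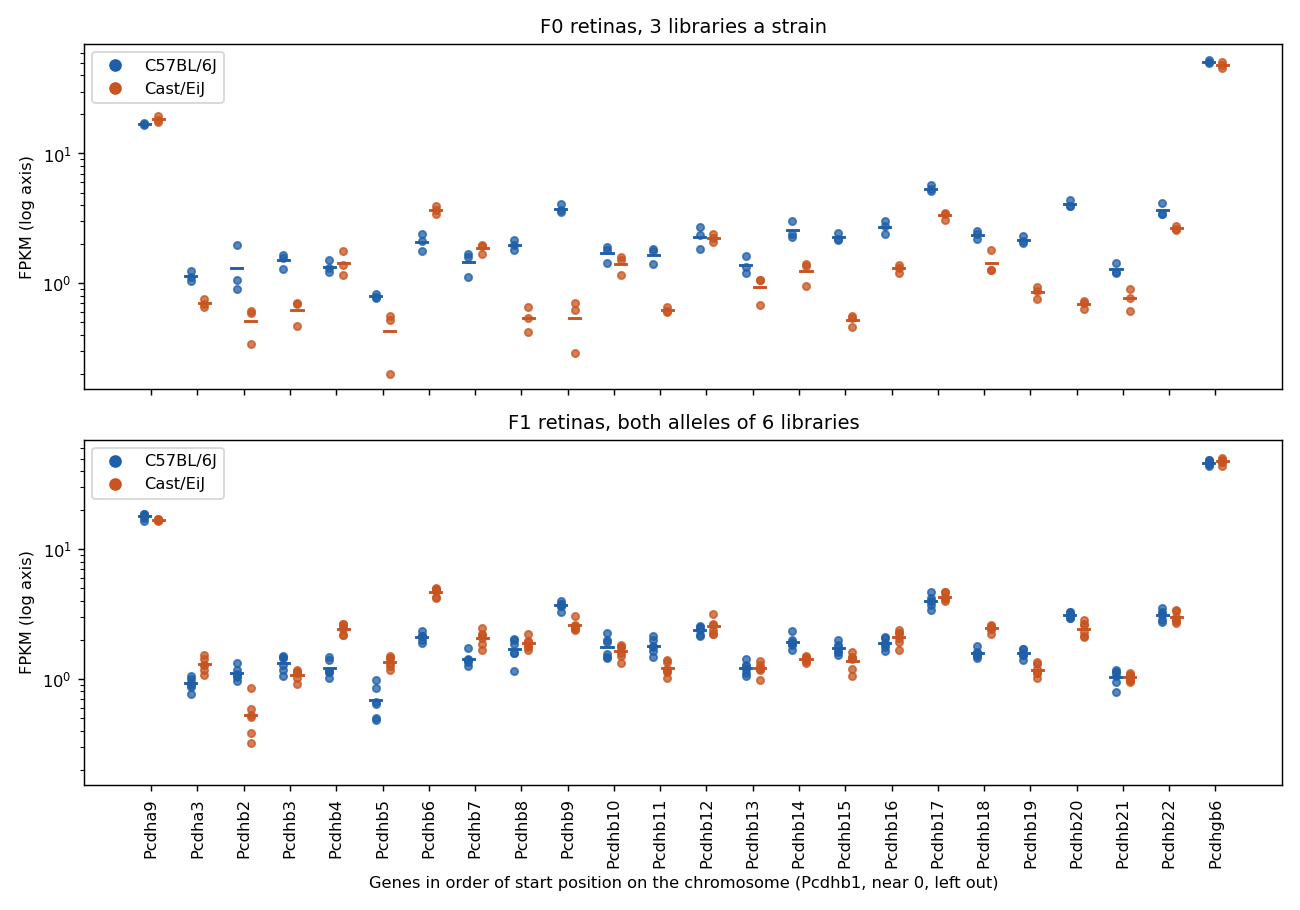
FPKM (log axis) of the 24 tested members in chromosomal order, in F0 retinas (top, 3 libraries a strain) and for both alleles of the 6 F1 libraries (bottom). Points are libraries and bars are means; Pcdhb9 and Pcdhb20 are far lower in F0 Cast/EiJ (0.54 and 0.69 FPKM) than in F0 C57BL/6J (3.74 and 4.08 FPKM), while in F1 the Cast/EiJ alleles of both genes (2.59 and 2.43 FPKM) lie nearer to the C57BL/6J alleles (3.69 and 3.11 FPKM).

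The second comparison set the Cast/EiJ allele against the C57BL/6J allele within the same F1 nuclei. Calls went in both directions and not mainly downwards as in F0. Of 24 members, 6 had the higher Cast/EiJ allele and 8 the lower one on unique hits, and the same counts were obtained on count equivalents. Over the 13414 genes tested 55.8% were called in either direction on unique hits (24.4% higher, 31.5% lower) and 47% on count equivalents, so the members' 14 calls were near the background. The median log2 difference of the members was -0.03 on unique hits, as over all tested genes.

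The higher Cast/EiJ allele was found on both measures for Pcdha3, Pcdhb4, Pcdhb5, Pcdhb6, Pcdhb7 and Pcdhb18. The allelic difference of Pcdhb6 was the largest. Its C57BL/6J allele had 86, 105 and 82 unique hits in F1 B6xCast and 111, 98 and 86 in F1 CastxB6. Its Cast/EiJ allele had 207, 212 and 160 and then 260, 215 and 226 hits in the same libraries. The Cast/EiJ allele was above the other in 6 of 6 libraries, as it was for 7 members and for 19.8% of tested genes, and carried 69.3% of the summed hits, a log2 difference of 1.17 (adjusted p = 1.32e-37). Pcdhb4 (0.96), Pcdhb5 (0.95), Pcdhb18 (0.61), Pcdha3 (0.51) and Pcdhb7 (0.50) had smaller log2 differences in this direction.

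The lower Cast/EiJ allele was found on both measures for Pcdhb2, Pcdhb9, Pcdhb11, Pcdhb14, Pcdhb15, Pcdhb19 and Pcdhb20. The count-equivalent call of Pcdhb15 was lost without F1 B6xCast replicate 3 or F1 CastxB6 replicate 2 (limma adjusted p = 0.0542 to 0.0716). Pcdhb2 differed most, with 49, 65, 55, 73, 57 and 50 hits for the C57BL/6J allele and 15, 34, 22, 53, 28 and 20 for the Cast/EiJ allele. The Cast/EiJ allele was lower in 6 of 6 libraries, as for 25.5% of tested genes, with a log2 difference of -1.04 (adjusted p = 2.99e-12). Pcdhb11 (-0.64), Pcdhb9 (-0.57) and Pcdhb14 (-0.48) came next. Pcdhb3 was called on unique hits alone (-0.32) and Pcdha9 on count equivalents alone, where its log2 difference was only -0.10 ± 0.03 (SE, adjusted p = 0.0246) and lost its call without any 1 of 4 F1 libraries (adjusted p = 0.067 to 0.109). The Cast/EiJ allele took between 45% and 55% of the summed hits for 8 Pcdhb genes. For Pcdhgb6 50.3% of hits came from the Cast/EiJ allele, and the log2 difference of 0.02 did not pass the test (adjusted p = 0.568).

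**Figure D3:**
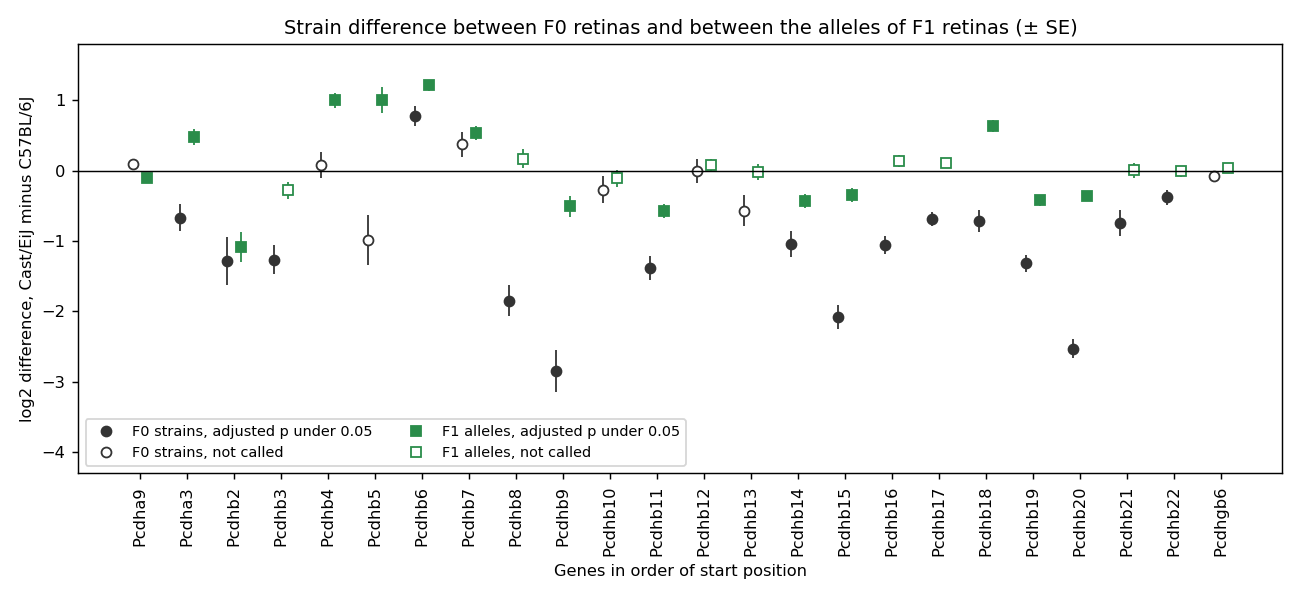
Log2 difference of Cast/EiJ against C57BL/6J on count equivalents, with SE, between F0 strains (circles) and between the alleles of F1 retinas (squares), genes in chromosomal order. Filled symbols have an adjusted p under 0.05; all 21 tested Pcdhb genes have an F0 value below their F1 value.

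The strain difference in F0 less the allelic difference in F1, called the trans effect here, was negative for all 21 tested Pcdhb genes. It is a single contrast and not the study's choice among models of regulation, so a gene with an allelic difference alone can be called too. It was called for 15 of them and for Pcdha3, all negative (limma), so 16 of 24 members were called. Over all tested genes 14% were called, 8.31% with a negative value and 5.64% with a positive value. The median of the members was -0.80, against 0.00 over all tested genes. The trans effect shares its F0 and its F1 libraries with the comparisons above and is not independent of them.

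Pcdhb9 had the most negative trans effect, -2.34 ± 0.26 (SE, adjusted p = 1.4e-05). Pcdhb20 followed with -2.17 ± 0.11 (adjusted p = 5e-10) and Pcdhb8 with -2.02 ± 0.24 (adjusted p = 2.16e-05). Pcdhb5 (-1.99 ± 0.34) and Pcdhb18 (-1.36 ± 0.15) had opposite signs in the underlying comparisons, lower in F0 Cast/EiJ and with the higher Cast/EiJ allele in F1. The same held for Pcdha3 (-1.15 ± 0.21). Pcdhb4 combined an F0 difference of 0.08 with an allelic difference of 0.96, both log2 differences on unique hits, and had a trans effect of -0.92 ± 0.20.

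Pcdhb2 had like differences in both comparisons, but its trans effect had the largest SE of the tested Pcdhb genes. The missing trans call therefore does not establish that they are alike. The F0 call of Pcdhb2 on count equivalents was lost without F0 C57BL/6J replicate 2 or F0 Cast/EiJ replicate 2 (limma adjusted p = 0.0662 to 0.0667). Its log2 difference on count equivalents was -1.28 ± 0.34 between F0 strains and -1.08 ± 0.21 between F1 alleles, and its trans effect was -0.20 ± 0.39 (adjusted p = 0.794). Pcdhb7, Pcdhb10, Pcdhb12, Pcdhb13 and Pcdhb22 were not called either, with trans effects of -0.17, -0.16, -0.09, -0.55 and -0.37. For Pcdhgb6 the value was -0.10 ± 0.07 (adjusted p = 0.342). Pcdha9 was the single member with a positive value, 0.19 ± 0.06 (adjusted p = 0.0516). The trans call of Pcdhb6 (-0.43 ± 0.14, adjusted p = 0.0464) was lost under 14 of 20 alternatives.

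To see which allele moved, each allele in F1 was set against the same allele in its F0 strain, a contrast added after the values were seen. The Cast/EiJ allele was higher in F1 than in F0 for 14 members (13 Pcdhb genes and Pcdha3) and lower for Pcdha9, where 10.4% of tested genes were called higher and 6.08% lower. Pcdhb9 gave 16.6, 35.7 and 40.9 count equivalents in F0 Cast/EiJ. Its Cast/EiJ allele gave 142, 135 and 171 in F1 B6xCast and 136, 148 and 144 in F1 CastxB6, a log2 difference of 2.29 ± 0.19 (SE, adjusted p = 3.96e-07). Pcdhb20 gave 47.4, 43.1 and 49.5 in F0 Cast/EiJ and 138 to 187 in F1, a log2 difference of 1.75 ± 0.08 (adjusted p = 1.23e-10). For 15 members all 6 F1 values lay above all 3 F0 values of the same allele, a pattern held by 11% of tested genes. The call of Pcdha9 (-0.15, adjusted p = 0.0345) was lost on leaving out any of 6 libraries (adjusted p = 0.0631 to 0.212).

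The C57BL/6J allele gave fewer calls. It was higher in F1 for 0 members by limma (4 of 24 values were positive, the highest being 0.10) and lower for 5, where 3.87% of tested genes were called, 2.07% higher and 1.8% lower. These 5 were Pcdhb16, Pcdhb17, Pcdhb18, Pcdhb19 and Pcdhb20, consecutive genes near the distal end of the Pcdhb cluster, with log2 differences from -0.61 to -0.42. Pcdhb17 had 349, 319 and 325 count equivalents in F0 C57BL/6J and 206 to 283 for its C57BL/6J allele in F1, without overlap (-0.46 ± 0.09, adjusted p = 0.00534). Pcdhb14 and Pcdhb15, the genes just before them, had like values (both -0.42) that did not pass (adjusted p = 0.0901 and 0.0897). Without F0 C57BL/6J replicate 2 only 2 of these 5 calls were left.

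**Figure D4:**
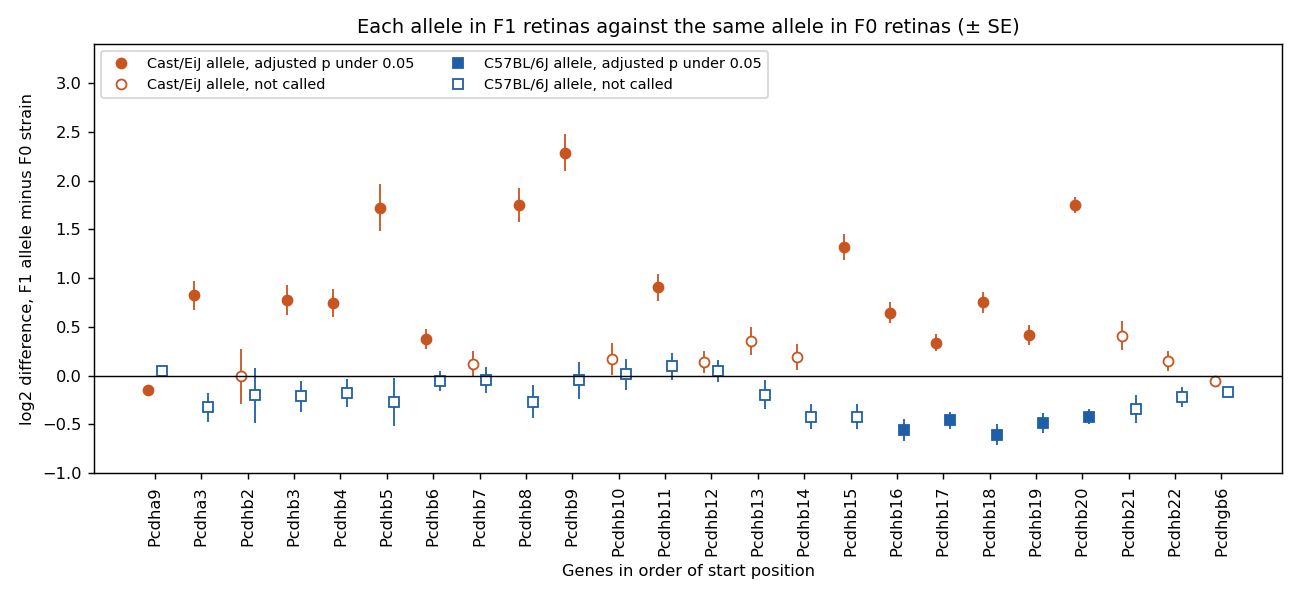
Log2 difference on count equivalents, with SE, between each allele in F1 retinas and the same allele in its F0 strain. Filled symbols have an adjusted p under 0.05; the Cast/EiJ allele of Pcdhb9 stands highest (2.29), and Pcdhb16 to Pcdhb20 are the genes with a called C57BL/6J allele.

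F0 reads were aligned to the transcriptome of their own strain and F1 reads to a hybrid of both, so the type of library and the reference cannot be told apart in these contrasts. F1 libraries were sequenced on 2 lanes and F0 libraries on 1.

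The fourth comparison, of maternal against paternal alleles, gave no call. By edgeR on unique hits 0 of 24 members passed, with 5 at an unadjusted p under 0.05. By limma on count equivalents 0 passed, with 2 at an unadjusted p under 0.05. Of 13414 tested genes, 723 by edgeR and 870 by limma had an unadjusted p under 0.05. DESeq2 on unique hits also called 0. Over all tested genes 0.455% (0.149% higher, 0.306% lower) and 0.492% (0.179% higher, 0.313% lower) were called. The smallest adjusted p was that of Pcdhb20 (0.124 on unique hits), with a log2 value of -0.21, the paternal allele being higher. Pcdhb12 had 0.25 (adjusted p = 0.205).

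The entries with shared constant exons had about as many unique hits for their expression as other genes. Because all transcripts with a given constant exon belong to the same entry, a read pair in that exon still counts as a unique hit of the gene. The ratio of unique hits to count equivalents, divided by its median over tested genes of the same library, averaged 0.972 ± 0.0161 for Pcdha, 1.01 ± 0.00244 for Pcdhb and 0.988 ± 0.00327 for Pcdhg over the 6 F0 libraries (SD of the cluster median). The ratios of all 3 clusters were thus close to that of a typical gene, the lowest being Pcdha, at 0.965 when summed over its members. Pcdha9 (0.96 to 0.97 in either strain) had exonic overlap with Gm10545, an antisense gene covering 11.3% of its exonic bases, and the libraries are not stranded, so reads of such pairs cannot be told apart. Gm16882, antisense to Pcdhgb6, covered 5.7%.

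Pcdhb genes shared few stretches as long as a read, in a search that did not cover the Cast/EiJ sequence. In the reference sequence of C57BL/6J, 11 of 22 Pcdhb genes shared no stretch as long as a read with the transcripts of any other protein-coding gene. For the other 11 the shared stretches were at most 2.48% of all stretches of that length in the gene, a value reached by Pcdhb6, which shared them with Pcdhb8 and Pcdhb10. Pcdhb7 and Pcdhb9 shared 32 such stretches with each other. The F0 ratio of Pcdhb9 was 1.005 in C57BL/6J and 1.017 in Cast/EiJ. The ratio cannot show reads that align nowhere, because unique hits and count equivalents would fall together. Whether such reads add to the low Cast/EiJ value was not tested. Over all tested members the F0 ratio ran from 0.96 to 1.03 in either strain.

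In F1 the same ratio counts pairs specific to an allele and differed between the members. Relative to the typical gene, its mean over allele columns was 0.80 for Pcdha9, which carries nearly all of the Pcdha level, and 1.97 for the weakly expressed Pcdha3. The cluster values were 1.78 for Pcdhb and 0.545 for Pcdhg. Within Pcdhb it ran from 0.81 for Pcdhb22 and 0.96 for Pcdhb17 to 2.32 for Pcdhb5. Pcdhgb6, the most abundant entry, therefore rested on a small share of allele-specific pairs, still 881 to 1349 per allele and library. The posterior SD of natural log expression, the uncertainty of the authors' estimate, had a median of 0.117 for Pcdhb and 0.0165 for Pcdhgb6 over the F0 libraries, against 0.0838 over all tested genes.

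**Figure D5:**
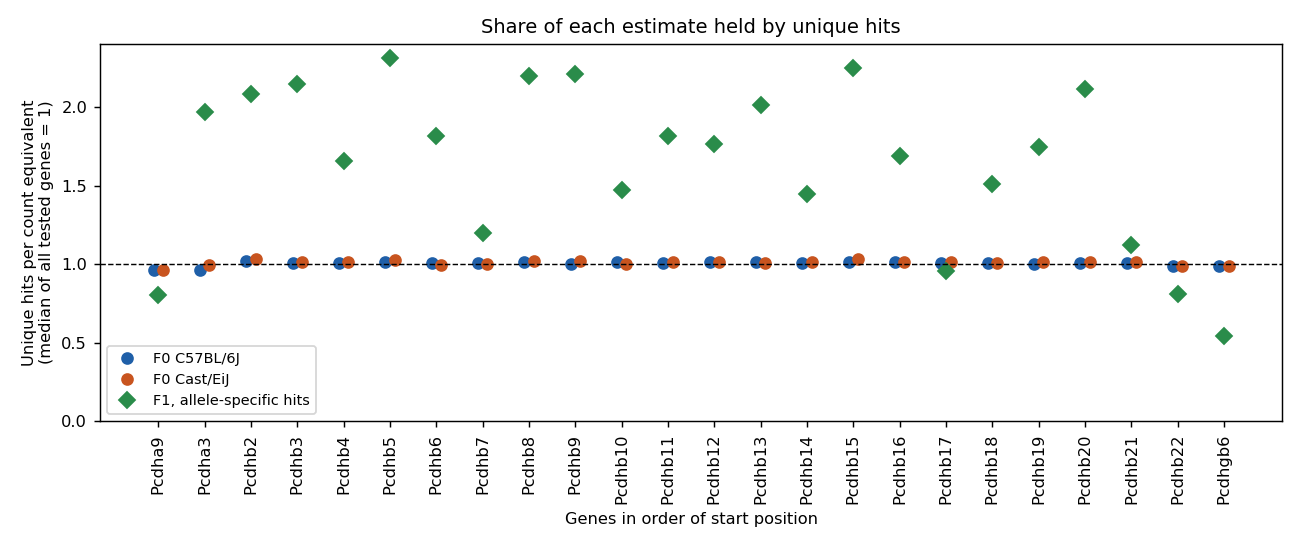
Unique hits per count equivalent of each tested member, relative to the median of all tested genes (dashed line at 1), as the mean over F0 libraries of each strain and over the allele columns of F1. F0 values lie near 1 for every member, while F1 values run from 0.55 for Pcdhgb6 to 2.32 for Pcdhb5.

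Genes related to the clusters by function showed mixed differences. Over all tested genes 17.5% were called higher and 20.5% lower on unique hits, 38% in either direction. Of the 13 non-clustered protocadherins listed 9 were tested in F0, with 1 higher and 2 lower in Cast/EiJ on unique hits. Pcdh15, a component of hair cell and photoreceptor adhesion complexes, was lower (-0.50, adjusted p = 0.000722) and Pcdh1 higher (0.30, adjusted p = 0.0252), both also called on count equivalents. Of 15 chromatin factors tested, 6 were higher and 1 was lower (unique hits). The lower one was Dnmt3a, a DNA methyltransferase (-0.38, edgeR adjusted p = 0.00317), which was not called on count equivalents (-0.23, limma adjusted p = 0.0793). Trim28, a corepressor (0.47, adjusted p = 0.000567), Smchd1, a chromatin protein known to repress clustered protocadherins (0.38, adjusted p = 0.0033), Nipbl, the cohesin loader (0.37, adjusted p = 0.00117), Wapal (0.24, adjusted p = 0.0222), which releases cohesin, Pds5a, a cohesin regulator (0.22, adjusted p = 0.0463), and Rad21, a cohesin subunit (0.20, adjusted p = 0.0427), were higher on both measures. Of 10 signalling and processing partners 2 were higher and 3 lower in F0, among them Ret, a receptor tyrosine kinase (0.77), higher and Pak1, a kinase acting on the cytoskeleton (-0.46), lower on both measures. Among the 23 neighbouring genes tested, which lay beside the clusters or, as Taf7, between them, 3 were higher and 2 lower. Whether any of these differences bears on the Pcdhb genes was not tested.

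Cell type markers also differed between the F0 strains. The calls given with them are on unique hits, where 17.5% of tested genes were higher and 20.5% lower. Summed ganglion cell markers reached 284 to 312 FPKM in C57BL/6J and 211 to 228 FPKM in Cast/EiJ (6 markers, 3 called lower on unique hits). Cone markers reached 409 to 488 against 279 to 336 FPKM (2 of 3 tested lower), and bipolar cell markers 203 to 229 against 257 to 268 FPKM (1 higher, 3 lower of 5). Amacrine markers gave 271 to 321 against 317 to 344 FPKM (3 of 6 higher) and starburst amacrine markers at most 16.7 against at least 17.6 FPKM (1 of 4 tested higher). Rod markers summed to at most 15300 against at least 16064 FPKM (1 higher, 1 lower of 5), and Mueller glia markers gave 755 to 916 against 681 to 784 FPKM (1 higher, 1 lower of 4). Markers of tissue beside the retina gave 6.70 to 8.24 against 1.91 to 2.97 FPKM for retinal pigment epithelium, 0.292 to 8.35 against 3.48 to 10.7 FPKM for lens and 76.0 to 115 against 35.5 to 58.0 FPKM for blood. The part of these differences in the Pcdhb result was not tested.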

How the data were processed

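Per the paper's methods, the authors trimmed reads (Trim Galore 0.2.6 per the submitters' processing notes), aligned F0 reads with Bowtie 0.12.9 to a transcriptome of their own strain and F1 reads to a hybrid of both (Ensembl 67, NCBI37), and estimated expression with MMSEQ. They deposited, per gene and library or allele, unique hits (raw counts of read pairs), normalized count equivalents (a signal on a common scale, not whole numbers), natural log expression, here exponentiated to FPKM, and the posterior SD of that log value (a score of uncertainty). A further deposited table holds the authors' posterior probabilities and Bayes factor of each comparison, which were not used; only its flag of polymorphic genes was, and 36 of its columns of per-sample values were left out.

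Unique hits were tested with edgeR 4.0.16 (quasi-likelihood, TMM in F0; library as a term in F1) and log2(count equivalents + 1) with limma 3.58.1. F0 tests covered autosomal genes with at least 10 in 3 of 6 libraries. The limma fit of F1 alleles and trans effects held all 12 libraries (F1 library as block, consensus correlation 0.1354) over autosomal genes that carried a strain variant and averaged 10 or more allele-specific hits. P-values were Benjamini-Hochberg adjusted over all tested genes, with calls at 0.05. SE are limma's, on the log2(value + 1) scale, which understates changes of low genes. P-values rest on the spread between pools, which both methods estimate in part across genes. A very small p is therefore not a measure of the spread of that gene alone. For the F1 allelic difference the smallest adjusted p of a member was 1.32e-37 by edgeR and 1.03e-09 by limma. Alternatives included DESeq2 1.42.0. Both F0 fits, the F1 edgeR allelic fit and the limma contrasts for trans effects and the Cast/EiJ allele were run on simulated data. The other contrasts and DESeq2 were not. Transcript structures came from GENCODE M1.

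Members and gene lists were chosen with earlier results of these data known. Named were the 3 most abundant members of each cluster, members called on both measures (10 largest), those at the extremes of the unique-hit ratio or nearest the filter, and list genes called on both measures in F0, not all of which are reported here. Further members are named to account for all 25. No sequence of the locus is printed.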

Additional observations from a re-analysis of the deposited data

Results flagged for a closer look

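The strain difference of 16 members differed between F0 and F1 retinas, by the limma contrast between the parental and the allelic difference. On the log2 scale it was -2.34 for Pcdhb9, -2.17 for Pcdhb20, -2.02 for Pcdhb8, -1.99 for Pcdhb5, -1.74 for Pcdhb15, -1.36 for Pcdhb18, -1.20 for Pcdhb16 and -1.15 for Pcdha3. For Pcdhb3 it was -0.99, for Pcdhb4 -0.92, for Pcdhb19 -0.90, for Pcdhb11 -0.81, for Pcdhb17 -0.80, for Pcdhb21 -0.75, for Pcdhb14 -0.61 and for Pcdhb6 -0.43. All 16 values were negative. No test of single outlying libraries applied, since each group had 3 libraries.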

How the results depend on the processing

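Of 1489 alternative values for 98 results on named members, 1407 kept their direction and their side of the threshold, 82 kept their direction but no longer passed, and 0 reversed. The number of members called ran from 14 to 18 for the F0 difference on unique hits and from 12 to 18 on count equivalents, from 12 to 15 for the F1 allelic difference on either measure, from 12 to 17 for the trans effect and from 13 to 15 for the Cast/EiJ allele in F1 against F0. DESeq2 called 15, 14 and 12 members in F0 on unique hits, in F0 on count equivalents and in F1 on unique hits. The count for the C57BL/6J allele in F1 against F0 ran from 2 to 6 on leaving out a single library, with 2 without F0 C57BL/6J replicate 2, where the calls of Pcdhb16, Pcdhb19 and Pcdhb20 were lost (limma adjusted p = 0.079, 0.0965 and 0.0516). Without the 3 libraries that stood apart, an alternative chosen after seeing the data, 16 members were called in F0 on unique hits, 12 had a trans effect and 13 had a called Cast/EiJ allele.

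On leaving out a single library, the F0 calls on unique hits were lost by edgeR for Pcdha3 without 3 of the libraries (adjusted p = 0.0646 to 0.0787), for Pcdhb5 without 3 (0.0602 to 0.071), for Pcdhb22 without 3 (0.0517 to 0.0784) and for Pcdhb13 without 2 (0.142 to 0.155). F0 C57BL/6J replicate 2 was among them for all 4 genes. The trans calls of Pcdhb6 (without 10 of the libraries), Pcdhb14 (without 6) and Pcdhb21 (without 2) were lost likewise, with limma adjusted p up to 0.149, 0.109 and 0.0652. The Pcdha9 calls in F1 on count equivalents (without 4) and for the Cast/EiJ allele against F0 (without 6) were lost too, with limma adjusted p up to 0.109 and 0.212. The cause was not tested.

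The ratio of unique hits to count equivalents, not divided by the library median, was 0.758 for Pcdha, 0.789 for Pcdhb and 0.772 for Pcdhg. Divided by that median and summed over the cluster it was 0.965 for Pcdha, 1.008 for Pcdhb and 0.988 for Pcdhg. In the F1 libraries, by construction on allele-specific hits, it was 1.39 for Pcdha (the middle of 0.80 for Pcdha9 and 1.97 for Pcdha3), 1.78 for Pcdhb and 0.545 for Pcdhg.

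With the replicate number as a block, 18 members were called in F0 on unique hits, 17 on count equivalents, 14 in F1 on either measure, 15 for the trans effect, 0 for parent of origin, 15 for the Cast/EiJ allele and 5 for the C57BL/6J allele. The numbers share only a label: deviations of same-numbered F0 libraries correlated at 0.234, 0.0628 and 0.161, those of F1 libraries at -0.121, -0.0374 and -0.0120, and not every library correlated best with its own number. Depth limits Pcdhb1, with at most 6 unique hits in an F0 library.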

Other observations

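Inside the span of the clusters (chr18:37089939-38001527, NCBI37) lie 6 named genes that are not protocadherins. The 3222401L13Rik gene, just before the Pcdhg entry (chr18:37815561-37818391), was lower in F0 Cast/EiJ on unique hits, with a log2 difference of -0.87 (edgeR adjusted p = 0.000523). Gm16882, a lincRNA antisense to Pcdhgb6 (chr18:37906213-37927896), had 185, 212 and 142 unique hits in F0 C57BL/6J against 80, 72 and 81 in F0 Cast/EiJ (-0.89, adjusted p = 0.000424). The raw hits of Gm16882 did not overlap between the strains. Their trans effects on count equivalents were -0.56 and -1.14 (limma adjusted p = 0.0211 and 4.18e-05), and in F1 the Cast/EiJ allele was lower for 3222401L13Rik (-0.31, edgeR adjusted p = 1.02e-06) and higher for Gm16882 (0.25, edgeR adjusted p = 7.56e-05) on unique hits. Gm10544, a lincRNA antisense to Pcdha9, had a trans effect of -0.90 (limma adjusted p = 0.00547) and a higher Cast/EiJ allele (1.32 on unique hits). Taf7, between the Pcdhb and Pcdhg clusters, passed neither F0 test (0.04 on unique hits) and had a trans effect of -0.11 (limma adjusted p = 0.452). Slc25a2 and Gm10545 had too few hits for the F1 tests. These genes were chosen for their position, after their values were seen.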
